A study of Mus musculus with 4 samples.

Results

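A set of 10 transforming growth factor beta (TGF-beta) genes was followed through mouse vascular smooth muscle cell (VSMC) states in atherosclerotic plaque and in ligated carotid artery. The genes were taken by name from the 34469 genes listed in the single-cell files, and all 10 of 10 were listed in each of the 4 libraries. The set holds 3 ligands (Tgfb1, Tgfb2, Tgfb3), 3 receptors (Tgfbr1, Tgfbr2, Tgfbr3) and 4 genes that TGF-beta is known to induce (Ltbp2, Skil, Pmepa1, Bambi). Plaque cells came from Myh11-CreERt2/Confetti/ApoE-/- mice (ApoE-/-) and from mice of the same alleles that also carried the Sm22a-Trf2T188A transgene (Trf2T188A/ApoE-/-). Both plaque groups, on a C57Bl/6 background, had received tamoxifen from 6 weeks of age and then a high fat diet for 14 weeks, and plaques were taken from aortic root, aortic arch and carotid arteries. Ligation cells came from the left common carotid of wild-type control and Sm22a-Trf2T188A (Trf2T188A) C57Bl/6 males aged 4 to 5 months, 28 days after ligation, without ApoE deletion or high fat diet. Each genotype had 1 library per experiment, and the number of mice behind a library is not given in the sources used here. The transgene encodes a mutant of the telomere protein TRF2 under a minimal Sm22a promoter active in arterial VSMCs, so that other cells of the artery are not expected to make it, and the Confetti reporter marks descendants of Myh11-expressing VSMCs in the plaque mice only. The authors had kept clusters of plaque cells with reporter transcripts, and 84.9% of ApoE-/- and 85.5% of Trf2T188A/ApoE-/- VSMC-lineage cells held one.

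TGF-beta is secreted in a latent complex bound to matrix and, once released, brings together the type II receptor Tgfbr2 and the type I kinase Tgfbr1, which phosphorylates Smad proteins that then enter the nucleus. Smad targets include contractile and matrix genes as well as inhibitors that limit the same signal, and in VSMCs the pathway is known for holding cells in, or returning them to, the contractile state. The comparisons asked how ligands and receptors on one side and targets on the other differ between VSMC states and between genotypes.

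Promoter sequence was matched for 5 of the 10 genes in the RefSeq table of build GRCm38.p6. Those of Ltbp2 and Tgfb2 are shown because Ltbp2 had the widest range over VSMC states and Tgfb2 the largest genotype difference in fibromyocyte-like plaque cells. Capitals mark the 5 letters CAGAC, a core to which Smad proteins can bind, or their reverse complement GTCTG, searched on both strands. The first stretch is chr12:84876559-84876741 and the second chr1:186705990-186706239, each read on the minus strand towards the gene.
Ltbp2: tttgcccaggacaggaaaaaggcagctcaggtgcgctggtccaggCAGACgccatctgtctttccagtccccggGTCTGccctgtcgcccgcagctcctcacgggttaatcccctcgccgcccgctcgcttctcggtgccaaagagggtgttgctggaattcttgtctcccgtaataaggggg
Tgfb2: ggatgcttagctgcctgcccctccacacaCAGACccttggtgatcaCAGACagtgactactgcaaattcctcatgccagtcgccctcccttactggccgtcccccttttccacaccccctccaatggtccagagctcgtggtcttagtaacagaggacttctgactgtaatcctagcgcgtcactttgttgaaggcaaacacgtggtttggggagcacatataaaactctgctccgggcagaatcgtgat
The Ltbp2 stretch of 183 bases held 2 matches, 205 and 176 bases before the transcript start of the table. Tgfb2 also had 2 matches, 221 and 204 bases before its start, in 250 bases that lie inside the span of a longer Tgfb2 transcript. Among 32851 promoters, 33.6% held at least 1 match and 7.12% at least 2 in the same stretch as that of Ltbp2, and the shares were 42.2% and 11.7% for the stretch of Tgfb2. The letters are therefore common, and no binding was measured here.

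The plaque libraries held 1502 ApoE-/- and 929 Trf2T188A/ApoE-/- cells, with 22765.5 and 24377 unique molecular identifiers (UMIs, counted transcripts) in the median cell. The ligation libraries held 4967 control and 5392 Trf2T188A cells, with medians of 8631 and 11153 UMIs. No cell barcode was shared by the plaque libraries and 10 by the ligation libraries. Cells were clustered within each experiment without the 10 genes, and clusters were called "-like" from lists of marker genes. Plaque VSMC-lineage cells numbered 1468 and 928, after 35 fibroblast-like cells were left out. They fell into 3 contractile-like clusters (clusters 0, 1 and 7), and into metallothionein intermediate-like, fibromyocyte-like, acute-phase-like, immediate-early-like, chondrocyte-like, Adamtsl1-type-like and Pln Notch3-type-like clusters of 1 each. The shallow immediate-early-like cluster was led by Gm15261, Ppargc1a and Taco1, with no marker of its list among the leading genes. In each alternative clustering the shallow cluster with these leading genes stayed unnamed. At the higher resolution and with integration, the immediate-early name went to deeper clusters, with medians of 26038.5 and 25690 UMIs. Ligation VSMC-lineage cells numbered 4886 and 5269 and fell into a remodelling-like, a de-differentiated-like and an interferon-like cluster and a cluster led by Sparcl1 that no marker list named. The Sparcl1-led cells served as the reference after ligation in place of contractile-like cells. Their 8 contractile markers summed to 392 and 411 UMIs per 10000 in control and Trf2T188A. By the mean log2 ratio of these markers to all other ligation cells, remodelling-like cells stood higher, at 0.48 against 0.21 in Sparcl1-led cells. The reference was thus not the highest cluster on that score. Over all VSMC-lineage cells the contractile markers summed to 266 and 242 in plaque and to 370 and 381 after ligation, while 7 endothelial markers summed to between 0.218 and 0.621 and 8 immune markers to between 0.0908 and 0.498. Terf2, which encodes TRF2, stood at 0.18 per 10000 in both plaque libraries and at 0.18 and 0.17 after ligation, but 3′ counts do not tell the transgene from the mouse gene, so this does not check the labels.

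A level below is the UMIs of a gene per 10000 UMIs summed over the cells named, and a ratio is the log2 of 2 such levels. Intervals are 95% intervals of counting error only. Since each genotype had 1 library, differences have no replicate check and no p is given. A difference between genotypes cannot be told apart from one between animals, dissections or libraries, or in plaque between the authors' cell filters. These required fewer genes per cell in Trf2T188A/ApoE-/-, where the fewest in a kept cell was 1056, than in ApoE-/-, at 1531. A gene counts as past the fold if its log2 ratio was 0.25 or more in size. A UMI of it also had to be seen in 10% or more of either group's cells. Both limits are those of the study's methods, which set them in a Seurat test of single cells together with an adjusted p limit. A gene past the fold here need not pass the study's criterion.

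Between genotypes the largest differences were in the targets. In plaque VSMC-lineage cells 1 of the 10 genes was past the fold, Ltbp2, which was higher in Trf2T188A/ApoE-/-, beside 9.69% of the 10537 detected genes. After ligation 2 of the 10 were past it, Bambi (higher in Trf2T188A) and Skil (lower), beside 10.8% of 8235 detected genes. The shares of members are thus near the background in both experiments, and no ligand or receptor was among them. Thinning each plaque cell to 8000 UMIs left out 92 ApoE-/- and 122 Trf2T188A/ApoE-/- cells of all types that had fewer. The cells that remained had equal weight. Ltbp2 was then at 0.66, and Tgfb1 and Skil were past the fold as well, at 0.32 and 0.28. The median log2 ratio was -0.02 over the 10 genes in plaque, where that of all detected genes was -0.01, and -0.04 after ligation, where that of all genes was -0.01.

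**Figure D1:**
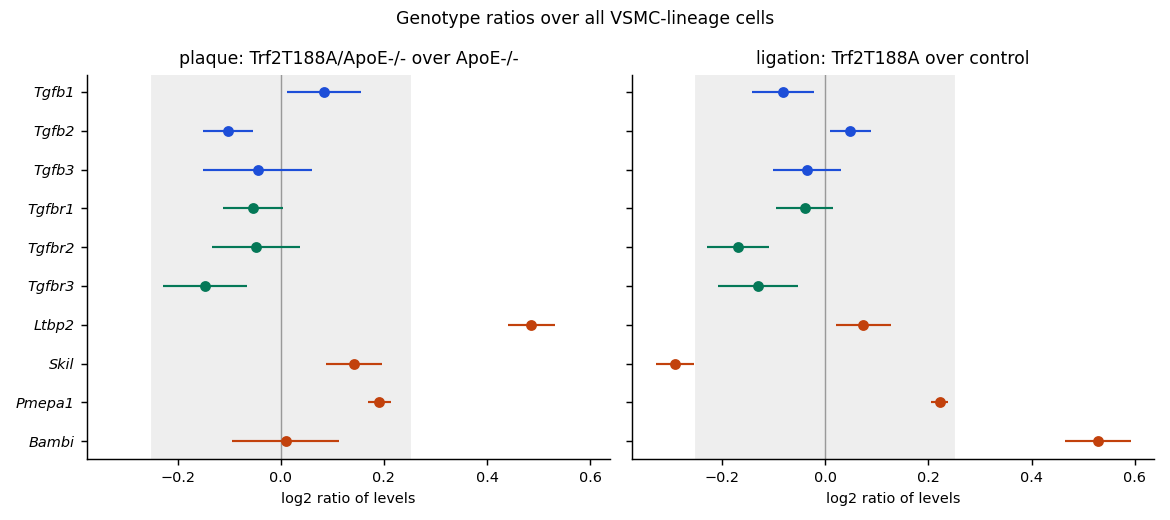
Log2 ratio of Trf2T188A to control levels over all VSMC-lineage cells (horizontal axis) for each of the 10 genes (rows; blue, ligands; green, receptors; orange, targets), in plaque (left) and after ligation (right). Points are ratios, bars 95% counting intervals and the grey band ratios under 0.25 in size; Ltbp2 at 0.49 in plaque, and Bambi at 0.53 and Skil at -0.29 after ligation, lie outside the band.

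Between states the same genes differed far more. Fibromyocyte-like plaque cells differed from contractile-like cells past the fold, and in the same direction in both libraries, for 5 of the 10 genes, beside backgrounds of 67.4% of all detected genes in ApoE-/- and 67.9% in Trf2T188A/ApoE-/-. Tgfb1 and Ltbp2 were higher in the fibromyocyte-like cells, and Tgfbr1, Tgfbr3 and Bambi were lower. After ligation, de-differentiated-like cells differed from Sparcl1-led cells in this way for 4 of the 10 genes, beside 49.9% in control and 51.7% in Trf2T188A. Ltbp2, Skil and Tgfb1 were higher there and Tgfbr1 was lower, so that Tgfb1, Ltbp2 and Tgfbr1 differed in the same direction as in fibromyocyte-like plaque cells. Counted library by library, as the backgrounds are, 7 of the 10 in ApoE-/-, 6 of the 10 in Trf2T188A/ApoE-/- and 5 of the 10 in each ligation library were past the fold, shares near the background.

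**Figure D2:**
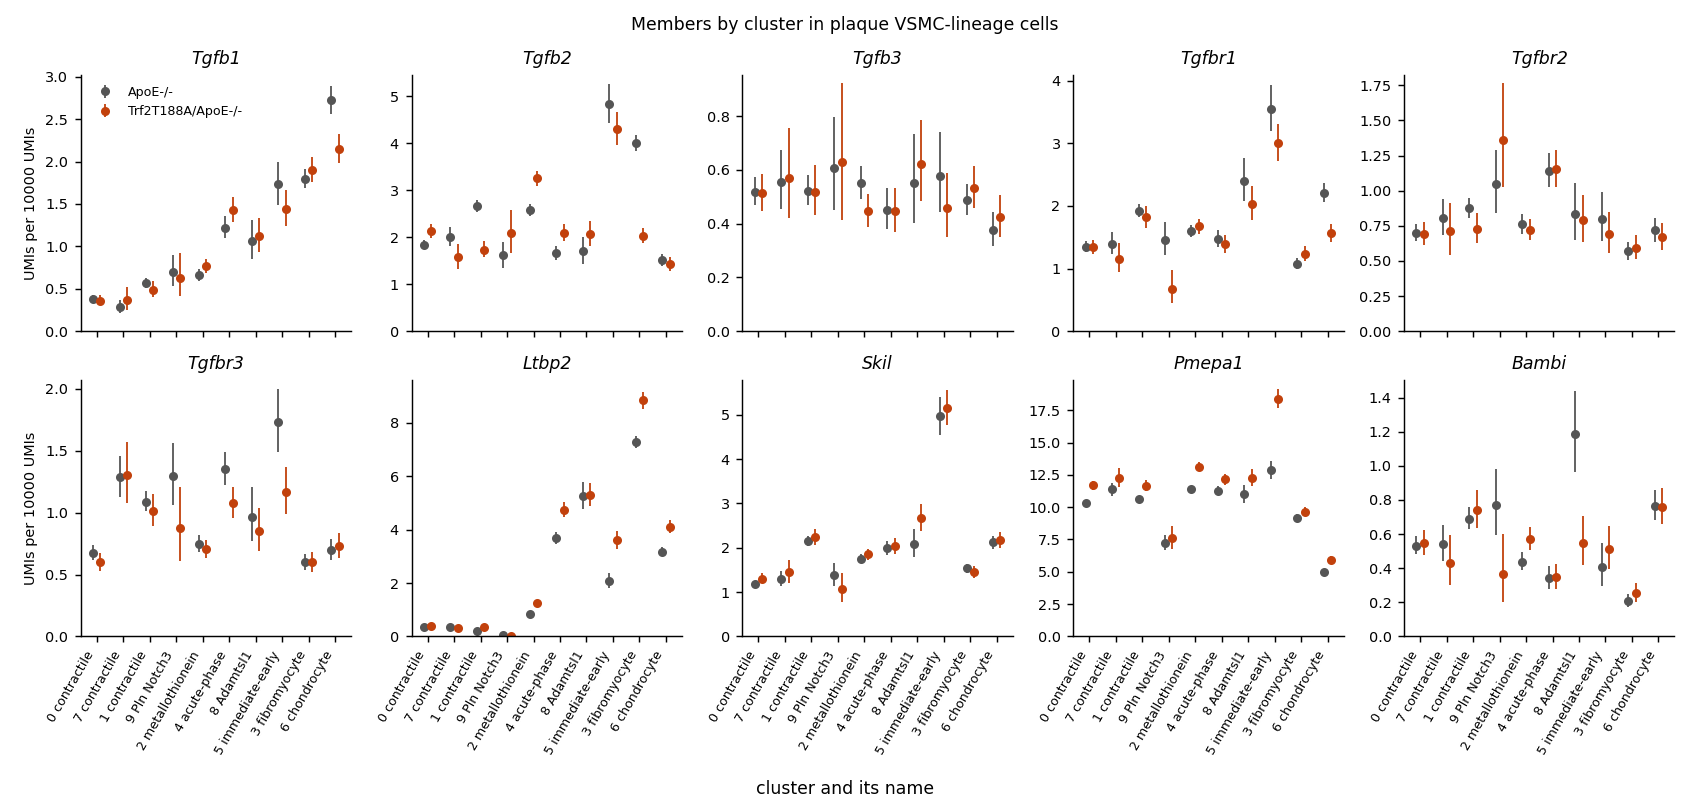
Levels of the 10 genes (vertical axes, UMIs per 10000 UMIs, each from 0) in 10 plaque VSMC-lineage clusters (horizontal axes) of ApoE-/- (grey) and Trf2T188A/ApoE-/- mice (orange), with 95% counting intervals. Tgfb1 is lowest in the 3 contractile-like clusters and Ltbp2 in the Pln Notch3-type-like cluster, and Ltbp2 reaches 7.28 and 8.84 in fibromyocyte-like cells.

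Tgfb1 (chromosome 7, 25687002 to 25705077), the ligand best known for repairing and fibrosing tissue, was lowest in contractile-like cells among plaque VSMC-lineage states. The log2 ratio of Pln Notch3-type-like over contractile-like cells in Trf2T188A/ApoE-/- was only 0.64 (0.006 to 1.22), from 26 UMIs. Fibroblast-like cells of ApoE-/-, outside the VSMC-lineage, were at 0.421, a log2 ratio of -0.08. The Tgfb1 level in contractile-like cells was 0.445 in ApoE-/- and 0.404 in Trf2T188A/ApoE-/-. In fibromyocyte-like cells it was 1.80 and 1.91, a log2 ratio over contractile-like cells of 2.02 (1.88 to 2.16) and 2.24 (2.04 to 2.44). Chondrocyte-like cells had the highest levels of both libraries, 2.72 and 2.15, with log2 ratios of 2.61 and 2.41. Below these 2 states came immediate-early-like cells at 1.73 and 1.44, acute-phase-like cells at 1.22 and 1.43, and Adamtsl1-type-like cells at 1.06 and 1.12. Metallothionein intermediate-like cells, at 0.661 and 0.767, and Pln Notch3-type-like cells, at 0.701 and 0.631, were nearer to the contractile-like level and took opposite places in the 2 libraries, with overlapping intervals. Many neighbours in this order had overlapping intervals, for 8 of the neighbouring pairs of clusters in ApoE-/- and 7 in Trf2T188A/ApoE-/-.

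Tgfb2 (chromosome 1, 186622787 to 186709697), the isoform that needs the co-receptor Tgfbr3 to bind its receptors well, did not follow Tgfb1. Contractile-like cells already held 2.20 and 1.94, and chondrocyte-like cells held less, 1.52 and 1.43, with log2 ratios of -0.54 and -0.44. Fibromyocyte-like cells were at 4.004 in ApoE-/- but at 2.04 in Trf2T188A/ApoE-/-, so that the ratio over contractile-like cells was 0.86 (0.79 to 0.94) in one library and 0.07 (-0.06 to 0.20) in the other. The highest levels of Tgfb2, 4.83 and 4.30, were in immediate-early-like cells. Those cells were the shallowest cluster, with medians of 9881.5 and 8440 UMIs, and 16 genes that respond to tissue dissociation summed to 201 and 219 per 10000 in them against 103 and 95.2 in contractile-like cells, and the part of either in the Tgfb2 level was not tested. Tgfb3 (chromosome 12, 86056743 to 86079041) was the flattest of the 10 in plaque, between 0.378 and 0.606 in the 10 ApoE-/- clusters plotted and between 0.424 and 0.631 in Trf2T188A/ApoE-/-, with the intervals of all neighbouring pairs overlapping. Chondrocyte-like cells were still lower than contractile-like cells past the fold, by -0.47 (-0.74 to -0.22) and -0.30 (-0.61 to 0.0007). In Trf2T188A/ApoE-/- Adamtsl1-type-like (0.25) and Pln Notch3-type-like cells (0.27) were higher.

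The genotype ratio of Tgfb2 changed sign between plaque states, although over all plaque VSMC-lineage cells it was only -0.10 (2.48 in ApoE-/- and 2.31 in Trf2T188A/ApoE-/-). In fibromyocyte-like cells Trf2T188A/ApoE-/- was lower by a log2 ratio of -0.98 (-1.10 to -0.85). That level rested on few cells: 7 of 145 fibromyocyte-like ApoE-/- cells held 41.9% of the Tgfb2 UMIs, and 1 cell alone held 350 of the 2312 UMIs. Without the 5% of cells with most UMIs of the gene, the level was 2.56 in ApoE-/- and 1.55 in Trf2T188A/ApoE-/-, and the per-cell medians were 1.59 and 1.15, so the order of the libraries stayed while the gap narrowed. Contractile-like cluster 1 was also lower, 2.66 against 1.74 (log2 ratio -0.61), and so was cluster 7, 2.002 against 1.57 (-0.35). The largest contractile-like cluster, cluster 0, went the other way by less than the fold, 1.85 against 2.13 (0.21). Metallothionein intermediate-like cells (2.58 and 3.25) and acute-phase-like cells (1.66 and 2.10) were each higher in Trf2T188A/ApoE-/- by 0.34. The share of all genes past the fold in either direction was 40.2% in fibromyocyte-like cells, 33.2% in cluster 1 and 52% in cluster 7. It was 30.7% in metallothionein intermediate-like and 43.4% in acute-phase-like cells, so ratios past the fold were common in these clusters.

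For Tgfb1 the genotype ratio over all plaque VSMC-lineage cells was 0.08, from 1.04 to 1.10. With both libraries set to the cluster shares of ApoE-/-, a comparison added after the data were seen, it was -0.04, and the states with much Tgfb1 made up a larger share of the Trf2T188A/ApoE-/- library. Chondrocyte-like cells had less Tgfb1 in Trf2T188A/ApoE-/-, by -0.34 (-0.49 to -0.19), and the ratio there was -0.05 after each cell was thinned to 8000 UMIs. Before thinning, 49.3% of all genes were past the fold between genotypes in chondrocyte-like cells. In fibromyocyte-like cells Tgfb1 differed by 0.08, within the fold.

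**Figure D3:**
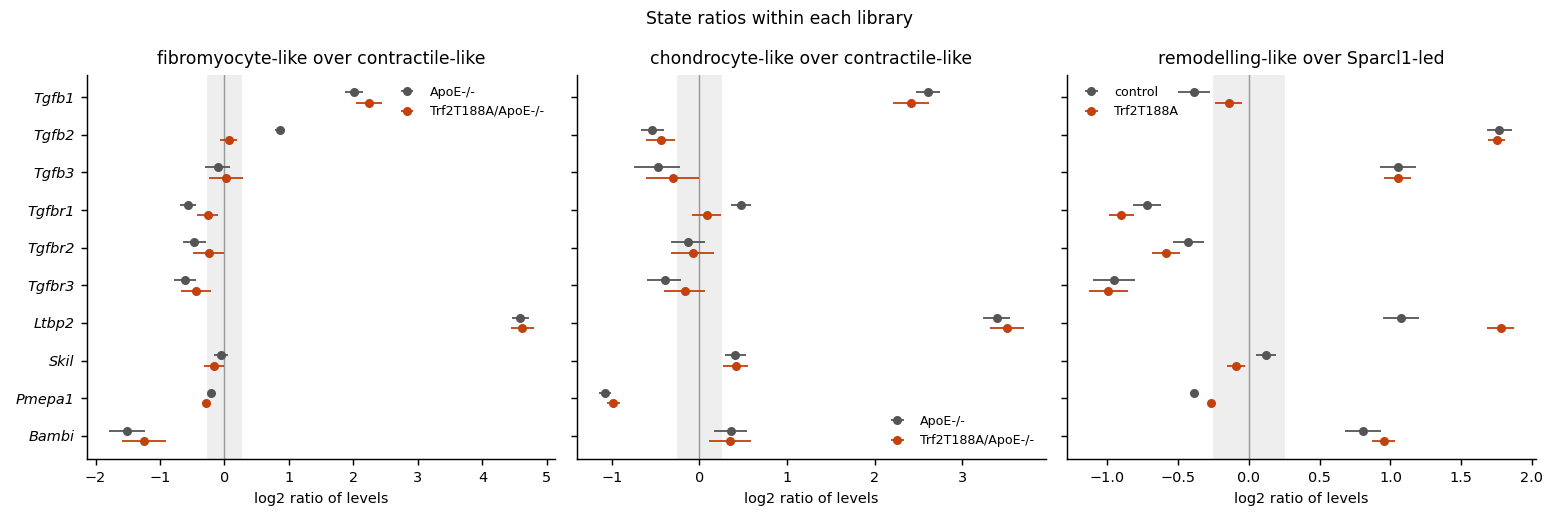
Log2 ratios of levels between states within a library (horizontal axes) for the 10 genes (rows): fibromyocyte-like over contractile-like and chondrocyte-like over contractile-like plaque cells, and remodelling-like over Sparcl1-led cells after ligation (control or ApoE-/- grey, Trf2T188A orange; bars, 95% counting intervals; grey band, under 0.25 in size). Ltbp2 and Tgfb1 stand far to the right in plaque, and Tgfb2 and Tgfb3 in remodelling-like ligation cells.

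After ligation the 3 ligands divided by state. Remodelling-like cells, the largest control cluster, had the most Tgfb2 and Tgfb3. Their Tgfb2 level was 2.97 in control and 3.48 in Trf2T188A, against 0.874 and 1.03 in Sparcl1-led cells, a log2 ratio of 1.77 and 1.75. Tgfb3 was at 0.956 and 1.002 against 0.461 and 0.484, and its ratio was 1.05 in both libraries. Tgfb1 went the other way, with the lowest level of both libraries in remodelling-like cells (0.655 and 0.660) and 1.13 in the de-differentiated-like cells of each. De-differentiated-like cells exceeded Sparcl1-led cells in Tgfb1 by 0.40 in control and 0.64 in Trf2T188A. The background for remodelling-like against Sparcl1-led cells was 29.9% of genes past the fold in control and 37.6% in Trf2T188A. Of the 10 genes 9 and 8 were past it, a larger share than the background, with 4 higher in each library and 5 and 4 lower. The genes were chosen with earlier results of these data known, so this larger share is a description only.

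Genotype ratios of the ligands after ligation were small. Over all VSMC-lineage cells they were -0.08 for Tgfb1, 0.05 for Tgfb2 and -0.04 for Tgfb3. Tgfb2 was higher in Trf2T188A in both large clusters, by 0.23 in remodelling-like and 0.24 in Sparcl1-led cells, just under the fold, and over all cells it was 0.18 at the cluster shares of control. The lower value over all cells went with a smaller share of remodelling-like cells, 41.0% of control and 34.9% of Trf2T188A cells. In the 112 control and 56 Trf2T188A interferon-like cells Tgfb1 was higher by 0.61 (94 and 95 UMIs) and Tgfb3 lower by -0.87 (83 and 30 UMIs), beside 57% of genes past the fold in this small cluster.

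**Figure D4:**
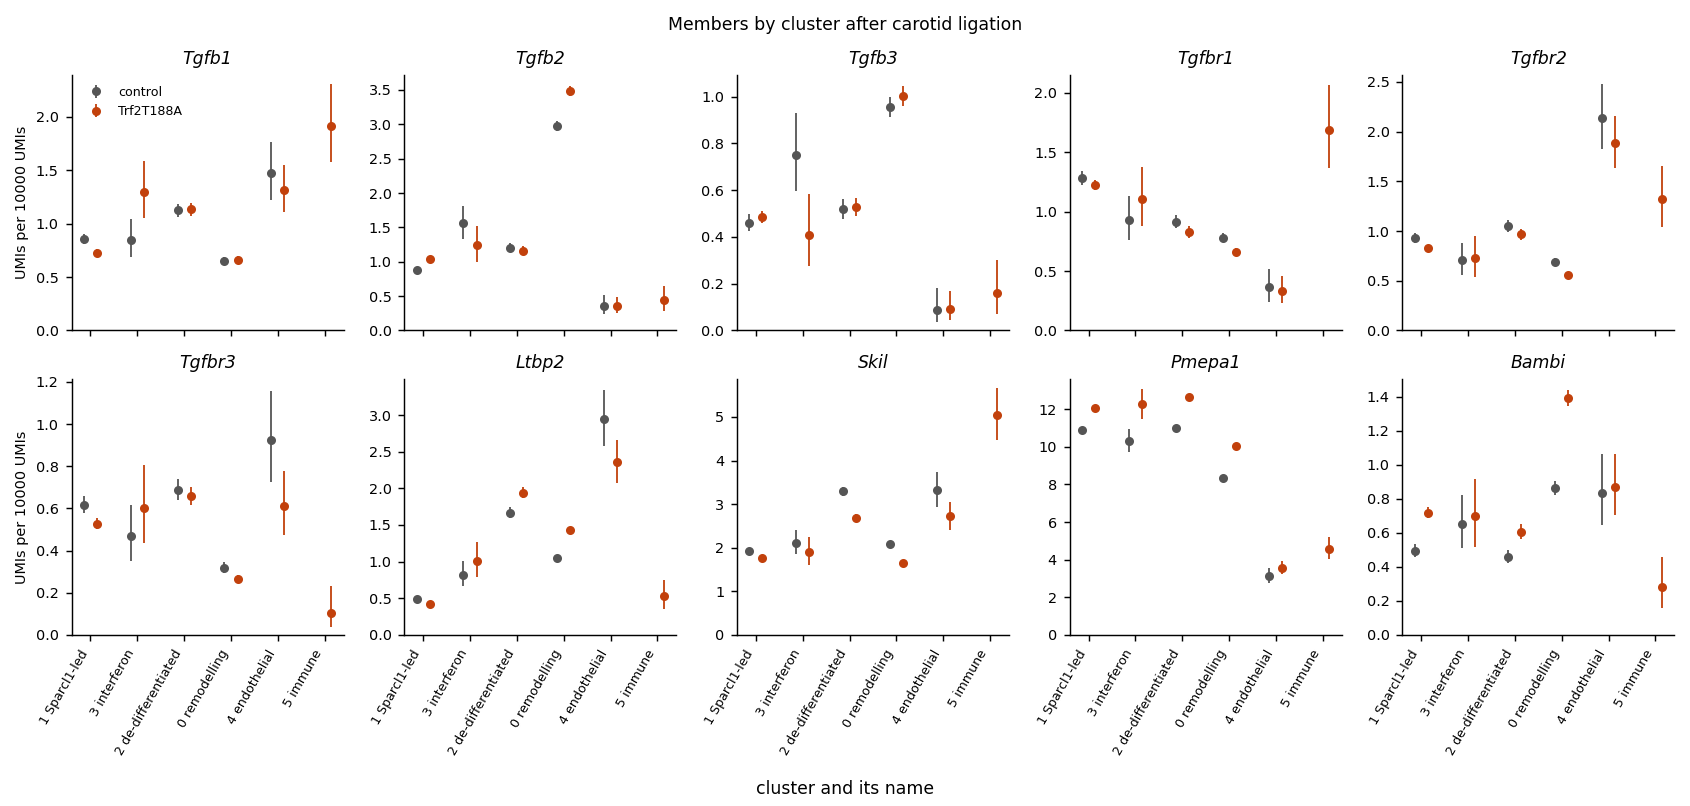
Levels of the 10 genes (vertical axes, UMIs per 10000 UMIs, each from 0) in the clusters formed after carotid ligation (horizontal axes) of control (grey) and Trf2T188A mice (orange), with 95% counting intervals; only Trf2T188A had 20 or more immune-like cells. Tgfb2, Tgfb3 and Bambi are highest among VSMC-lineage clusters in remodelling-like cells, and Tgfbr2 is highest in endothelial-like cells.

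Receptors ran against Tgfb1 in fibromyocyte-like plaque cells. Tgfbr1 (chromosome 4, 47353222 to 47414926), the type I kinase also called ALK5, was at 1.59 and 1.48 in contractile-like cells and at 1.08 and 1.23 in fibromyocyte-like cells, a log2 ratio of -0.57 in ApoE-/- and -0.26 in Trf2T188A/ApoE-/-. Tgfbr2 (chromosome 9, 116087695 to 116175363), which binds the ligand, went from 0.784 and 0.705 to 0.568 and 0.595, by -0.46 and -0.25 (just within the fold in the second library). Tgfbr3 (chromosome 5, 107106567 to 107289629), the co-receptor betaglycan, went from 0.918 and 0.814 to 0.599 and 0.598, by -0.62 and -0.45. In ApoE-/- all 3 were lowest in the state that had the most Ltbp2. These ratios depended on the clustering: at the lower resolution tried, where the fibromyocyte-like cluster was wider (268 and 215 cells) and the contractile-like group narrower (422 and 216 cells), they came to -0.12 and 0.039 for Tgfbr1, 0.10 and 0.25 for Tgfbr2 and 0.12 and 0.20 for Tgfbr3 in ApoE-/- and Trf2T188A/ApoE-/-. The lower receptor levels therefore did not hold at that resolution.

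In the other plaque states receptors lay on either side of the contractile-like level. Chondrocyte-like and metallothionein intermediate-like cells had less Tgfbr3 in ApoE-/- (log2 ratios of -0.40 and -0.29), and Pln Notch3-type-like cells less Tgfbr1 in Trf2T188A/ApoE-/- (-1.12, from 28 UMIs). Acute-phase-like cells had more Tgfbr2 (1.14 and 1.15, log2 ratios of 0.54 and 0.71) and more Tgfbr3 (1.35 and 1.08, log2 ratios of 0.56 and 0.40). Pln Notch3-type-like cells also had more Tgfbr2 (0.41 and 0.95), and Adamtsl1-type-like cells more Tgfbr1 (0.59 and 0.46). Past the fold in ApoE-/- only, chondrocyte-like cells had more Tgfbr1 (0.48) and Pln Notch3-type-like cells more Tgfbr3 (0.50). Tgfbr1 was highest in immediate-early-like cells, at 3.55 and 3.001, where 7 of the 10 genes were higher than in contractile-like cells past the fold in each library, beside 40.3% and 39.3% of all genes. Between genotypes no receptor was past the fold over all plaque cells (Tgfbr1 -0.05, Tgfbr2 -0.05, Tgfbr3 -0.15). Tgfbr1 was lower in Trf2T188A/ApoE-/- chondrocyte-like cells by -0.50, from 2.21 to 1.56, but 1 ApoE-/- cell held 22.6% of its UMIs there, and the per-cell medians were 1.13 and 0.983. After thinning to 1 depth that ratio was -0.01. Before thinning, 49.3% of all genes were past the fold between genotypes in chondrocyte-like cells.

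After ligation the receptors were lower in remodelling-like than in Sparcl1-led cells in both genotypes. The log2 ratios in control and Trf2T188A were -0.72 and -0.90 for Tgfbr1, -0.43 and -0.58 for Tgfbr2, and -0.95 and -0.99 for Tgfbr3. Remodelling-like cells therefore paired the highest Tgfb2 and Tgfb3 levels with the lowest receptor levels among the 3 large clusters. In these cells Trf2T188A was lower again than control for all 3, by -0.25 (0.780 to 0.656, just within the fold) for Tgfbr1, -0.32 (0.692 to 0.554) for Tgfbr2 and -0.27 (0.318 to 0.264) for Tgfbr3, where 21.5% of all genes were past the fold and 6 of the 10 were. Over all VSMC-lineage cells the ratios were -0.04, -0.17 and -0.13.

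Ltbp2 (chromosome 12, 84783212 to 84876558), a microfibril protein of the latent TGF-beta binding protein family that does not itself hold the latent ligand, had the widest range of the 10. Its level was 0.303 in contractile-like cells of ApoE-/- and 0.360 in those of Trf2T188A/ApoE-/-. Fibromyocyte-like cells were at 7.28 and 8.84, a log2 ratio of 4.59 (4.45 to 4.73) and 4.62 (4.44 to 4.80), or 24.1-fold and 24.6-fold. The other states with high levels were 4 in number. Adamtsl1-type-like cells were at 5.27 and 5.30, acute-phase-like cells at 3.67 and 4.75, chondrocyte-like cells at 3.18 and 4.11, and immediate-early-like cells at 2.09 and 3.60. Pln Notch3-type-like cells held 5 UMIs of Ltbp2 in 52 ApoE-/- cells and 1 UMI in 23 Trf2T188A/ApoE-/- cells, and free RNA was not measured. Metallothionein intermediate-like cells lay between, at 0.844 and 1.25.

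Over all plaque VSMC-lineage cells Ltbp2 was at 2.19 in ApoE-/- and 3.07 in Trf2T188A/ApoE-/-, a log2 ratio of 0.49 (0.44 to 0.53). Part of this went with cluster shares. Fibromyocyte-like cells were 9.65% of ApoE-/- and 12.1% of Trf2T188A/ApoE-/- cells, and chondrocyte-like cells 6.26% and 8.93%. The shares of the shallow immediate-early-like cells, 5.19% and 11.2%, and of contractile-like cluster 1, 19.2% and 11.4%, differed more. The part of the authors' lower limit on genes per cell for Trf2T188A/ApoE-/- in these shares was not tested. At the cluster shares of ApoE-/- the Trf2T188A/ApoE-/- level was 2.75, with a log2 ratio of 0.33. Within clusters Ltbp2 was higher in Trf2T188A/ApoE-/- past the fold in 6, by 0.28 in fibromyocyte-like, 0.37 in acute-phase-like and in chondrocyte-like, 0.56 in metallothionein intermediate-like, 0.74 in contractile-like cluster 1 and 0.79 in immediate-early-like cells. It was level in contractile-like cluster 0 (0.03) and in Adamtsl1-type-like cells (0.01). The share of all genes that were higher past the fold was 15.1% in fibromyocyte-like, 20.7% in acute-phase-like, 24.8% in chondrocyte-like, 12.5% in metallothionein intermediate-like, 15.8% in contractile-like cluster 1 and 25.9% in immediate-early-like cells. The chondrocyte-like value turned to -0.29 when the 25% of cells highest in dissociation genes were left out. Dissociation genes summed to 113 per 10000 in ApoE-/- and 125 in Trf2T188A/ApoE-/- over all cells, and without the top 25% the ratio over all cells was 0.43.

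**Figure D5:**
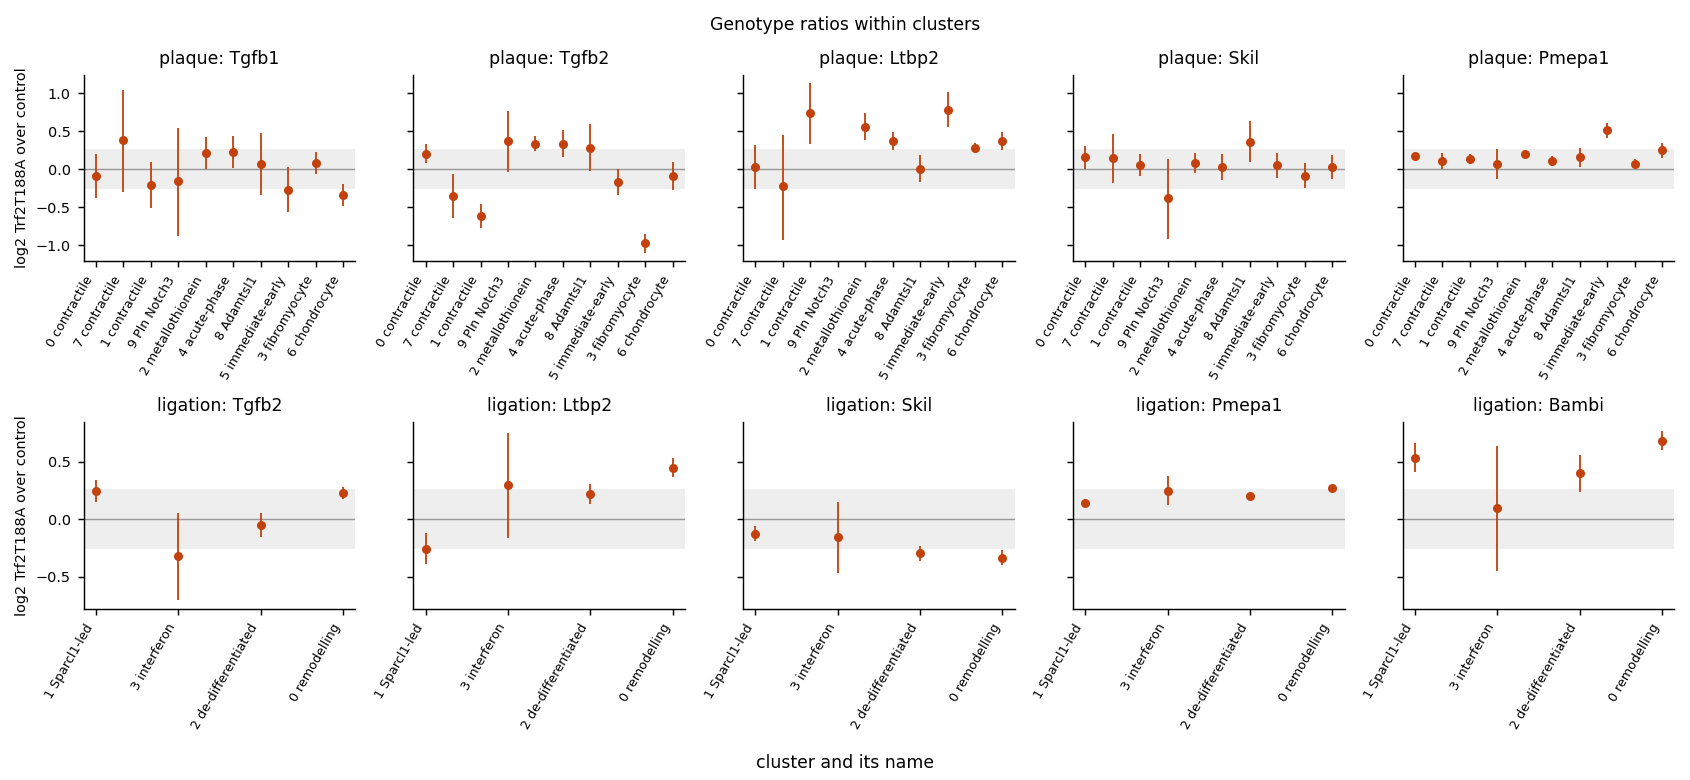
Log2 ratio of Trf2T188A to control levels (vertical axes) within each VSMC-lineage cluster (horizontal axes), for 5 genes in plaque (upper row) and 5 after ligation (lower row), with 95% counting intervals; the grey band marks ratios under 0.25 in size and ratios with 3 or fewer UMIs in a library are not drawn. Tgfb2 in plaque runs from -0.98 in fibromyocyte-like cells to 0.37 in Pln Notch3-type-like cells, while Pmepa1 is above 0 in every cluster drawn.

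After ligation Ltbp2 was higher in de-differentiated-like and remodelling-like cells than in Sparcl1-led cells. De-differentiated-like cells were at 1.66 in control and 1.94 in Trf2T188A, against 0.496 and 0.415 in Sparcl1-led cells, a log2 ratio of 1.75 (1.62 to 1.87) and 2.22 (2.12 to 2.32). Remodelling-like cells were at 1.05 and 1.43, with ratios of 1.07 and 1.78. Between genotypes Ltbp2 differed by 0.07 over all cells, but by cluster it was higher in Trf2T188A remodelling-like cells by 0.45 (0.37 to 0.53) and lower in Sparcl1-led cells by -0.26 (-0.39 to -0.12). At the cluster shares of control the ratio over all cells was 0.27, with levels of 1.02 and 1.23. Without the 25% of cells highest in dissociation genes the ratio in Sparcl1-led cells was -0.19, within the fold, and that in remodelling-like cells 0.52.

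Skil (chromosome 3, 31095058 to 31122923) encodes SnoN, a repressor of Smad target genes that TGF-beta itself induces. In plaque it was nearly level between contractile-like (1.59 and 1.63) and fibromyocyte-like cells (1.54 and 1.45), but at the lower resolution it was higher in fibromyocyte-like cells past the fold, by 0.56 and 0.40. Immediate-early-like cells stood out at 4.96 and 5.15, a log2 ratio of 1.64 and 1.66 over contractile-like cells. Chondrocyte-like cells were higher than contractile-like cells by 0.41 in both libraries, and their dissociation genes, at 202 and 209 per 10000, were close to those of immediate-early-like cells, with their part in the Skil level not tested. Between plaque genotypes Skil differed by 0.14 over all cells and by 0.06 at the cluster shares of ApoE-/-. After ligation the de-differentiated-like cells had the most Skil of the 3 large clusters, 3.30 in control and 2.68 in Trf2T188A. Trf2T188A was lower over all VSMC-lineage cells, 1.91 against 2.34, by -0.29 (-0.33 to -0.26). The ratio was -0.34 in remodelling-like, -0.30 in de-differentiated-like and -0.13 in Sparcl1-led cells. Dissociation genes were also lower in Trf2T188A, 169 against 183 per 10000, and the ratio of Skil without the 25% of cells highest in them was -0.29.

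Pmepa1 (chromosome 2, 173224458 to 173276731) encodes a membrane protein that sequesters Smads and is among the steadiest TGF-beta targets. It was lowest in chondrocyte-like cells of the 10 plaque clusters plotted, at 4.997 and 5.94, against 10.6 and 11.7 in contractile-like cells, a log2 ratio of -1.08 and -0.98. Fibromyocyte-like cells were slightly lower than contractile-like cells, by -0.20 and -0.28. Immediate-early-like cells were highest, at 12.9 in ApoE-/- and 18.4 in Trf2T188A/ApoE-/-, where the genotype ratio was 0.51 (0.42 to 0.61). Of all genes in that cluster 52.2% were past the fold between genotypes. The genotype difference of Pmepa1 was small but of 1 sign. Over all cells it was 0.19 in plaque (9.99 and 11.4) and 0.22 after ligation (9.84 and 11.5), under the fold in both, and it was above 0 in all 10 plaque and all 4 ligation clusters of VSMC-lineage cells. The clusters of an experiment come from the same pair of libraries and are not independent checks of the sign. Remodelling-like cells alone among the ligation clusters were past the fold, at 0.27. At the cluster shares of the control library the ratios were 0.17 and 0.21.

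Bambi, on chromosome 18, encodes a decoy that resembles a type I receptor without its kinase. In plaque its order was the reverse of that of Ltbp2 at one end, since fibromyocyte-like cells had the least, 0.210 and 0.252 against 0.598 and 0.597 in contractile-like cells, a log2 ratio of -1.51 (-1.80 to -1.24) and -1.24 (-1.59 to -0.91). Acute-phase-like cells were also lower, by -0.80 and -0.79. Chondrocyte-like cells were higher, at 0.766 and 0.759, by 0.36 and 0.35. Over all plaque cells the genotypes were level, 0.52 in both, and the largest cluster difference, -1.11 in Adamtsl1-type-like cells, rested on 99 UMIs in 41 cells and 62 UMIs in 40 cells. In that small cluster 58.8% of all genes were past the fold. After ligation Bambi had the largest genotype ratio of the 10. It was at 0.645 in control and 0.931 in Trf2T188A over all VSMC-lineage cells, a log2 ratio of 0.53 (0.47 to 0.59). The ratio was 0.69 in remodelling-like cells (0.865 and 1.39), 0.54 in Sparcl1-led cells (0.496 and 0.719) and 0.40 in de-differentiated-like cells (0.460 and 0.607), beside 12.9% and 20.1% of genes past the fold in the Sparcl1-led and de-differentiated-like clusters. Of control cells 3015 of 4886 held no Bambi UMI, and 2419 of 5269 Trf2T188A cells held none, at a higher median depth. After thinning to 5000 UMIs per cell, which left out 325 control and 154 Trf2T188A cells of all types, the ratio was 0.55.

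A list of 33 other genes of the pathway was compared in the same way. In plaque all 33 were detected, and 3 were higher and 1 lower past the fold in Trf2T188A/ApoE-/-, where 4.4% of all detected genes were higher and 5.29% lower. The matricellular growth factor gene Ccn2 went from 24.7 to 30.9 (log2 ratio 0.32), Tgfbi, a secreted matrix protein, was higher by 0.45, and Lox, which cross-links collagen and elastin, went from 2.60 to 3.35 (0.36). These 3 are targets, and the lower gene, Lrrc32 (-0.28), encodes a surface protein that holds latent TGF-beta. After ligation 31 were detected and 2 were higher, the inhibitory Smad6 by 0.27 and Lox by 0.26 (3.59 and 4.30), where 6.06% of all detected genes were higher. In remodelling-like cells, with 21.5% of all genes past the fold, Lox (0.57), Smad3 (0.46), the microfibril gene Fbn1 (0.30) and Ltbp3 (0.27) were higher, while Myocd (-0.30), the co-activator of contractile genes, Crebbp (-0.29) and the repressor Ski (-0.26) were lower. De-differentiated-like cells (background 20.1%) also had more Lox (4.14 and 5.64, log2 ratio 0.44) and less Myocd (-0.36) in Trf2T188A, and Sparcl1-led cells (12.9%) more Smad6 (0.76) and less Ccn2 (33.8 and 28.0, -0.27). In fibromyocyte-like plaque cells, with 40.2% of all genes past the fold, the oxidase gene Nox4 was higher in Trf2T188A/ApoE-/- (0.76), while Lrrc32 (-0.90) and Smad6 (-0.51) were lower. For these single clusters no count of listed genes past the fold is given beside the share of all genes. The genes named in them are therefore single values and not a result about the list. Fibromyocyte-like cells exceeded contractile-like cells for 18 of the 33 in ApoE-/- and 15 in Trf2T188A/ApoE-/-, beside 37.5% and 33.9% of all detected genes, and were lower for 9 and 4, beside 29.9% and 34%. The 4 that were lower in both libraries, named after their values were seen, were Nox4 (-1.84 and -1.08), Ltbp1 (-1.36 and -1.57), Myocd (-1.35 and -1.67) and Ltbp4 (-1.23 and -1.03).

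Over the 21 plaque combinations of cluster and library with at least 20 cells, the genes whose levels ranked most like those of each target were named among 13273 genes. For Ltbp2 these were Galnt10, Clcn5 and Timp2 (Spearman rho 0.91 each), for Skil Sqstm1, Mapk6 and Ifrd1 (0.95, 0.94 and 0.94), for Pmepa1 Cactin, Coro6 and Itgb5 (0.88, 0.86 and 0.85) and for Bambi Msmo1, Ecm2 and Id2 (0.78, 0.75 and 0.73). The 4 targets were unlike each other on this measure, with rho of 0.47 between Ltbp2 and Skil, 0.16 between Ltbp2 and Pmepa1, and -0.28 between Ltbp2 and Bambi. After ligation, over 11 combinations and 10923 genes, they were Thbs1, Ddah1 and Snhg1 for Ltbp2 (0.98, 0.97 and 0.97), Jak1, Abca1 and Cdk13 for Skil (0.99, 0.98 and 0.98), C1qtnf2, Coq7 and Cenpw for Pmepa1 (0.99, 0.98 and 0.98) and Tinagl1, Cav2 and Mgst3 for Bambi (0.92, 0.91 and 0.89). The points share libraries and cell depth, so these are descriptions. Some points are cells outside the VSMC-lineage. In plaque these are fibroblast-like cells of ApoE-/-. After ligation they are endothelial-like cells of both libraries and immune-like cells of Trf2T188A. The part of these cells in the ranks was not tested. Genes picked as the highest of 10923 over 11 points, or of 13273 over 21, can have a high rho by selection alone. From cell to cell within contractile-like plaque cells most of the 45 pairs of the 10 genes hardly varied together. The median rho was 0.03 in ApoE-/- and 0.02 in Trf2T188A/ApoE-/-. In these libraries 2 and 6 of the 45 pairs reached 0.1 in size, with 0.25 for Ltbp2 and Pmepa1 in Trf2T188A/ApoE-/-. Skil had a rho of 0.24 and 0.33 with the summed dissociation genes there. None of the 45 pairs reached 0.1 in size in Sparcl1-led ligation cells.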

How the data were processed

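Single cells were profiled with 10x 3′ v3 chemistry, aligned by the authors to GRCm38 with Cell Ranger (6.1.2 for ligation, 7.0.0 for plaque) and filtered in Seurat. In plaque the authors' limit on genes per cell was lower for Trf2T188A/ApoE-/- than for ApoE-/-. The deposited values were a signal, UMI counts divided by a size factor for each cell. Whole UMI counts were recovered here within 0.01 for 100% of values, and no library size other than the recovered sum was used. The experiments were clustered separately with Seurat 5.3.0 in R 4.3.3 on 2000 variable genes, leaving out the 10 genes and the other pathway genes (18 components and resolution 0.9 for plaque, 17 and 0.2 for ligation, as in the study's methods). A cluster was named where a marker list scored at least 0.5 with at least 3 markers, limits set after the data were seen. A cluster far below the median depth of a library also needed a marker of the list among its leading genes. Scrublet (scanpy 1.11.5) marked no more than 0.323% of cells in any library, too few for a working call, so no doublets were removed. Recovered counts were summed over cells of a cluster and library (Python 3.11.15, numpy 2.4.6, pandas 2.3.3, scipy 1.17.1), with exact Poisson intervals for levels and exact conditional binomial intervals for ratios. Units under 20 cells were left out. The scripts were tested on simulated data. Named genes were the 10 members, listed pathway genes past the fold, and the 3 genes most alike to each target in rank over clusters. Members and lists were chosen with earlier results of these data known.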

Additional observations from a re-analysis of the deposited data

How the results depend on the processing

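Of 51 alternative counts of members past the fold, 41 stayed within 1.5 times the reported count and 10 moved. In plaque the genotype count of 1 became 3 with cells thinned to 1 depth and 0 at a log2 limit of 0.5, and the state count of 5 became 3 with a pseudocount of 1, 3 at the limit of 0.5 and 3 with reciprocal PCA integration. After ligation the genotype count of 2 became 0 with the pseudocount, 1 at the limit of 0.5 and 1 with clusters weighted equally, and the state count of 4 became 2 with the pseudocount and 2 at the limit of 0.5. Of 1210 values of single genes 1007 stayed within their counting interval, 197 moved outside it and 6 that were past the fold as reported changed sign, while sign changes of smaller ratios are among the others. At the lower resolution the plaque state ratios turned to 0.10 for Tgfbr2 and 0.12 for Tgfbr3 in ApoE-/-, and to 0.039 for Tgfbr1 and 0.20 for Tgfbr3 in Trf2T188A/ApoE-/-. There Tgfbr2 in Trf2T188A/ApoE-/- went from -0.25, within the fold, to 0.25, past it, and Skil from -0.05 and -0.16 to 0.56 and 0.40. The genotype ratio of Bambi in fibromyocyte-like cells turned to -0.0098 with the pseudocount, and that of Ltbp2 in chondrocyte-like cells to -0.29 without the 25% of cells highest in dissociation genes. For these changes the cause was not tested. At the lower resolution no Sparcl1-led cluster formed after ligation, so its state comparison gave no value. Over all VSMC-lineage cells the ratio of Ltbp2 in plaque ranged from 0.32 to 0.66, that of Bambi after ligation from 0.23 to 0.59 and that of Skil after ligation from -0.30 to -0.21. Leaving out the immediate-early-like cluster and holding cluster shares at those of the control library were chosen after seeing the data. No paired analysis was possible because each genotype had 1 library per experiment, and no replicate could be left out. Levels near the limit that 3 UMIs set, such as Ltbp2 in Pln Notch3-type-like cells, are limited by depth.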

Other observations

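The non-VSMC cells taken along with the ligated artery gave the members another pattern, described here as values. Endothelial-like cells, 62 in control and 65 in Trf2T188A, summed to 52.2 and 46.9 UMIs per 10000 over the 7 endothelial markers. They had more Tgfbr2 than Sparcl1-led VSMCs, 2.13 and 1.88, a log2 ratio of 1.197 and 1.18, and less Tgfbr1, 0.362 and 0.333, a ratio of -1.83 and -1.88. Type I and type II receptor thus stood on opposite sides of the VSMC level in these cells, in both libraries. Their Ltbp2 was also high, 2.94 and 2.36, above that of every VSMC-lineage cluster after ligation, while Pmepa1 was at 3.14 and 3.58, a ratio of -1.80 and -1.75. Tgfb3 was near absent, with 7 and 10 UMIs. The 58 immune-like cells of Trf2T188A, whose 8 immune markers summed to 296 per 10000, had the highest Skil (5.05) and Tgfb1 (1.92) of any ligation cluster and held 6 UMIs of Tgfbr3.

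In the plaque the 34 fibroblast-like cells of ApoE-/-, which were left out of the VSMC-lineage, had Tgfbr3 at 4.32, a log2 ratio of 2.24 (2.03 to 2.44) over contractile-like cells, Tgfb2 at 0.612 (-1.85) and Ltbp2 at 0.306 (0.02). Within fibromyocyte-like cells the pair of members that varied together most was Tgfb1 and Ltbp2, with a Spearman rho of 0.29 over 142 ApoE-/- cells and 0.34 over 98 Trf2T188A/ApoE-/- cells thinned to 1 depth, a description across cells that share a library. The most opposed pair was Tgfb1 and Tgfb2 in ApoE-/- (-0.17) and Tgfb2 and Ltbp2 in Trf2T188A/ApoE-/- (-0.28).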
